A study of Mus musculus with 4 samples.

Results

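Chemoattractant receptors are membrane proteins of the G protein-coupled receptor family that steer blood cells along gradients of small secreted proteins. Those described here are 8 receptor genes (Cx3cr1, Ccr1, Ccr2, Cxcr4, Ccrl2, Cmklr1, C5ar1 and C3ar1), taken as the rows of the deposited count table whose Ensembl identifiers carry these symbols, 8 of 23390 gene models. Each has 1 row, and all 8 passed the filter on low counts. RNA came from wild-type (Wt) C57BL/6J mouse bone marrow macrophages cultured towards osteoclasts, the multinucleated cells that resorb bone. All 4 samples had 3 days of macrophage culture, 40 ng/ml RANKL and an L929 cell supernatant that supplies M-CSF, equivalent to 20 ng/ml. The DMSO group (2 libraries) received the solvent, and the BMS-582949 group (2 libraries) received 10 µM of this inhibitor of the kinase p38α, with RNA taken at day 4. The treatment protocol names the compound for every sample, so groups follow the treatment label. Titles of the treated samples give the digits of the compound's name in another order, and the treatment label's spelling is kept here. The sources give either 3 or 4 days for the time the compound was present. Whether the 2 libraries of a group are separate animals or cultures is not stated. The p-values therefore reflect the spread among these 4 libraries, and that spread may be technical.

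As background, most chemokine and complement peptide receptors signal through Gi-type G proteins, whose beta-gamma subunits activate phosphoinositide 3-kinase gamma and phospholipase C beta and, further on, Rac GTPases that drive cell movement. Circulating osteoclast precursors are thought to reach bone through such receptors. Ccr1 binds Ccl3, Ccl5, Ccl6, Ccl7 and Ccl9, and Ccr2 binds Ccl2, Ccl7 and Ccl12. Cx3cr1 binds the membrane-anchored chemokine Cx3cl1, and Cxcr4 binds Cxcl12, which retains cells in the marrow. Cmklr1 is the signalling receptor for chemerin, the product of Rarres2, while Ccrl2 is an atypical receptor that binds chemerin without the usual signalling. C5ar1 and C3ar1 bind the complement fragments C5a and C3a.

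The label osteoclast was checked on 8 osteoclast markers. Acp5 (34254 and 35276 CPM), Ctsk (34709 and 34561 CPM) and Mmp9 (24934 and 28141 CPM) were abundant in the DMSO libraries, and all 8 markers were lower with BMS-582949, with a median log2 fold change of -2.97. CPM are counts scaled to a common library size, here with the TMM method. Of 8 macrophage markers, 5 were higher and 1 was lower, and Lyz2, the most abundant, went from 4825 ± 17.6 to 8515 ± 419 CPM (SD, n = 2 each). Total counts were 35331889 to 39255925 per library. A gene was called where edgeR's quasi-likelihood test gave an adjusted p (Benjamini-Hochberg) under 0.05. By that threshold 30.5% of the 13214 tested genes were higher under the inhibitor and 29.7% lower, 60.2% in either direction, with a median log2 fold change of 0.03. Scaling by library size alone moved that median to 0.41 and the calls from 4035 higher and 3919 lower to 6738 and 2240. Fold changes below are relative to the TMM scale. In whole cultures, fewer cells of a type and less RNA per cell cannot be told apart.

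With BMS-582949, Ccr1 fell and Cx3cr1, C5ar1, Cxcr4 and C3ar1 rose. Of the 8 receptors, 4 were called higher, 1 lower and 3 neither way, against the 30.5% and 29.7% of all tested genes. Their median log2 fold change was 1.02, and their values ran from -2.91 to 4.59. In CPM the groups did not overlap for any of the 8, and they were likewise apart for 80.2% of all tested genes.

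**Figure D1:**
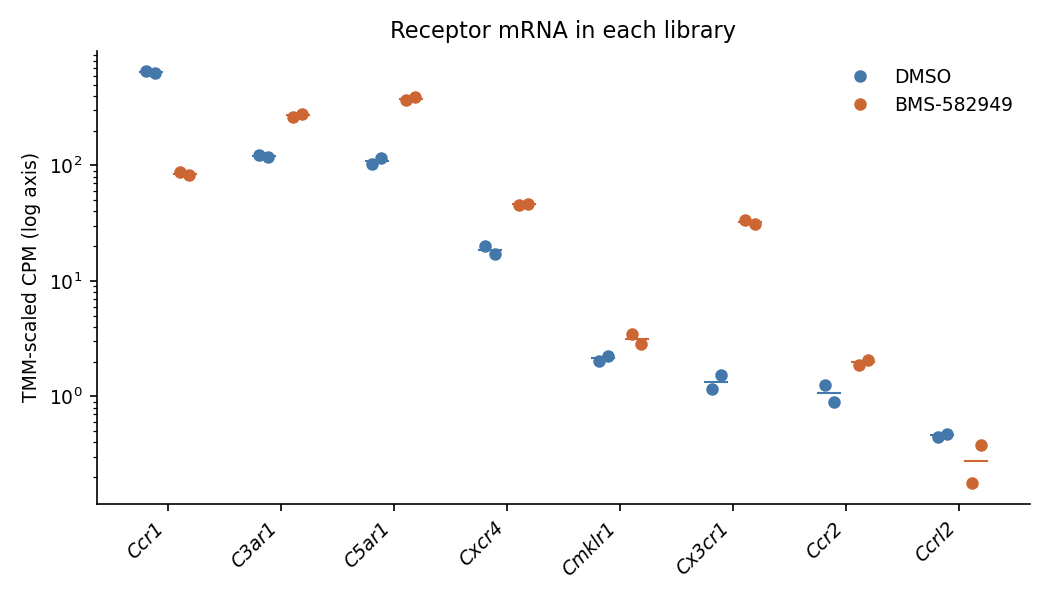
TMM-scaled CPM (log axis) of the 8 receptor genes in each library, with DMSO in blue, BMS-582949 in orange and a line at each group's mean. Ccr1 is the most abundant receptor in DMSO at 640 CPM and is at 85.0 CPM with BMS-582949, while Cx3cr1 goes from 1.34 to 32.4 CPM.

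The 250 bases before the start that RefSeq gives are shown for the receptor that fell and for 3 of the 4 that rose, so that promoters of genes that moved in opposite directions can be read side by side. The Cx3cr1 window is not shown because it lies wholly in a GENCODE exon. The sequences are RefSeq promoters on GRCm38.p6, each 5′ to 3′ on the gene's own strand, which is the minus strand for all 4. They lie at chr9:123968693-123968942 (Ccr1), chr7:16259339-16259588 (C5ar1), chr6:122856158-122856407 (C3ar1) and chr1:128592300-128592549 (Cxcr4). GENCODE places some starts farther upstream, so that 202 bases of the C5ar1 window lie within its gene span, 28 of them exonic, and 4 bases of the C3ar1 window are exonic. Capitals mark matches, on either strand, to the core letters of 5 motifs: AP-1 (TGANTCA), PU.1 (GAGGAA), NFAT (GGAAA), C/EBP (TTNNGCAA) and the E-box (CACGTG). PU.1 and NFAT cores can share letters, and they do not in these 4 windows.
Ccr1: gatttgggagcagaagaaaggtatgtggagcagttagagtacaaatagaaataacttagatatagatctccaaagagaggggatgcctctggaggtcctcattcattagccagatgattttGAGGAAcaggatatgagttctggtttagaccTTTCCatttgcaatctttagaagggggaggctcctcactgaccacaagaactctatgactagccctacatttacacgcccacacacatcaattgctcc
C5ar1: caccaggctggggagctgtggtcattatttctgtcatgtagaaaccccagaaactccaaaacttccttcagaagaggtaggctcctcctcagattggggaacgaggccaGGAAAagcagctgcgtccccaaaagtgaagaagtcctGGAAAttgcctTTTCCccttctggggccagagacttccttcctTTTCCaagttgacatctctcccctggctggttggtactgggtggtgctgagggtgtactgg
C3ar1: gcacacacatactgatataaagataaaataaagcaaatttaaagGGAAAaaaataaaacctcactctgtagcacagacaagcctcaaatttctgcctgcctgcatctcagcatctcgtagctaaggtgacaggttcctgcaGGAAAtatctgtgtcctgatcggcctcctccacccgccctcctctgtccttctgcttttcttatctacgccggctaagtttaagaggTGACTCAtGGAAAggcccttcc
Cxcr4: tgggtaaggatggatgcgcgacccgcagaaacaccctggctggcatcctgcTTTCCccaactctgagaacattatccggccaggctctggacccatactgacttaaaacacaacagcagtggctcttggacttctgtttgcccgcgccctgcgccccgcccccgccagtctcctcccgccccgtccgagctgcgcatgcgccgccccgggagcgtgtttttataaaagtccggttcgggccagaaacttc
The Ccr1 window held 1 match to the PU.1 letters and 1 to the NFAT letters. The C5ar1 window held 4 NFAT matches, the C3ar1 window 1 AP-1 match and 3 NFAT matches, and the Cxcr4 window 1 NFAT match. None of the 4 held the C/EBP or E-box letters. Over 32851 RefSeq windows of the same length, 6.75% held the AP-1 letters, 23.3% the PU.1 letters, 55.6% the NFAT letters, 9.56% the C/EBP letters and 6.02% the E-box. RefSeq gives 10 windows for the 8 receptors, 3 of them for Ccrl2 and partly overlapping. By gene, 7 of the 8 held the NFAT letters, 2 the PU.1 letters, 1 the AP-1 letters, 1 the E-box and none the C/EBP letters. The percentages above are by window, and by window 9 of 10 held the NFAT letters. Some of the windows not shown are largely exonic: Ccr2 has 233 exonic bases of 250, and 2 Ccrl2 windows have 139 and 140. The Cmklr1 window lies wholly within its gene span. A match is a stretch of letters, and no binding was measured.

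Ccr1 (ENSMUSG00000025804; chromosome 9, 123962124 to 123968692, minus strand, GRCm38), the inflammatory chemokine receptor, was at 653 and 627 CPM in the DMSO libraries and at 87.5 and 82.6 CPM with BMS-582949. The groups were far apart, and the 2 libraries within each were close. The log2 fold change was -2.91 ± 0.07 (SE; 95% interval -3.06 to -2.76; adjusted p = 2.0e-11), which is 7.52-fold lower, and 211 of the 13214 tested genes fell further. Ccr1 had more CPM than 98.2% of tested genes in DMSO and than 84.5% with BMS-582949. The 8 osteoclast markers ran from -3.21 to -1.48 on the same scale.

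Cx3cr1 (ENSMUSG00000052336; chromosome 9, 119901616 to 120069879, minus strand), the fractalkine receptor of monocytes and resident macrophages, was at 1.16 and 1.52 CPM in DMSO and at 33.5 and 31.3 CPM with BMS-582949. These values rest on 36 and 48 counts against 1516 and 1324. Both treated libraries stood far above both controls, 24.1-fold on average (log2 fold change 4.59, 95% interval 4.25 to 4.94), and 12 tested genes rose more. Exons of a model on the other strand, Gm33858, overlap 1.73% of its exon length.

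C5ar1 (ENSMUSG00000049130; chromosome 7, 16246743 to 16259540, minus strand), the C5a receptor that draws phagocytes to sites of complement activation, was at 104 and 115 CPM in DMSO and at 366 and 388 CPM with BMS-582949. The treated libraries were higher throughout, with a log2 fold change of 1.78 ± 0.07 (SE; 95% interval 1.63 to 1.93; adjusted p = 6.1e-10), or 3.44-fold. C3ar1 (ENSMUSG00000040552; chromosome 6, 122847138 to 122856161, minus strand), the C3a receptor, was at 123 and 119 CPM in DMSO and at 265 and 278 CPM with BMS-582949. It rose 2.24-fold (log2 fold change 1.16 ± 0.06, SE; adjusted p = 8.1e-09). The 2 complement receptors were at similar CPM in DMSO, and C5ar1 was the higher with the inhibitor. Per kb of exon, the ratio of C5ar1 to C3ar1 was 1.42 and 1.61 in the DMSO libraries against 2.31 and 2.34 in the treated ones, a ratio within each library that no scaling of libraries can move. With 2 libraries against 2, the smallest p that an exact two-sided permutation test of such a ratio can give is 0.333.

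Cxcr4 (ENSMUSG00000045382; chromosome 1, 128588199 to 128592293, minus strand), the Cxcl12 receptor, was at 20.1 and 17.2 CPM in DMSO and at 45.9 and 46.5 CPM with BMS-582949. The groups did not overlap, and the log2 fold change was 1.31 ± 0.11 (SE; 95% interval 1.07 to 1.55; adjusted p = 5.8e-07), or 2.48-fold. The 5 calls so far, on Ccr1, Cx3cr1, C5ar1, C3ar1 and Cxcr4, held their direction and their call under all 12 other fits, which changed the scaling, the filter or the tool, added a replicate block or left out 1 library.

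The other 3 receptors had low counts and were not called. Ccr2 (chromosome 9, 124101950 to 124113557, plus strand), which brings inflammatory monocytes out of the marrow, was at 1.25 and 0.887 CPM in DMSO and at 1.86 and 2.08 CPM with BMS-582949, on 28 to 88 counts. Its log2 fold change was 0.88 (95% interval 0.09 to 1.66), just outside the threshold (adjusted p = 0.0524). Ccr2 was called higher without DMSO replicate 1 (adjusted p = 0.042) and under 4 other settings, and it was not called under 7, where the adjusted p reached 0.23 without DMSO replicate 2.

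Cmklr1 (chromosome 5, 113612354 to 113650426, minus strand), the chemerin receptor, was at 2.03 and 2.25 CPM in DMSO and at 3.49 and 2.84 CPM with BMS-582949. The groups lay apart, yet the log2 fold change of 0.57 (95% interval -0.02 to 1.15; adjusted p = 0.086) did not pass, except with library size alone. Ccrl2 (chromosome 9, 111054486 to 111057519, minus strand) had 14 and 15 counts in DMSO and 8 and 16 with BMS-582949, so that its filter was met by both DMSO libraries and 1 treated one. By exact Poisson 95% intervals, which cover counting error only, these counts allow 7.65 to 23.5, 8.40 to 24.7, 3.45 to 15.8 and 9.15 to 26.0. A change of Ccrl2 was not detectable at this depth (log2 fold change -0.74, 95% interval -2.23 to 0.75; adjusted p = 0.37).

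**Figure D2:**
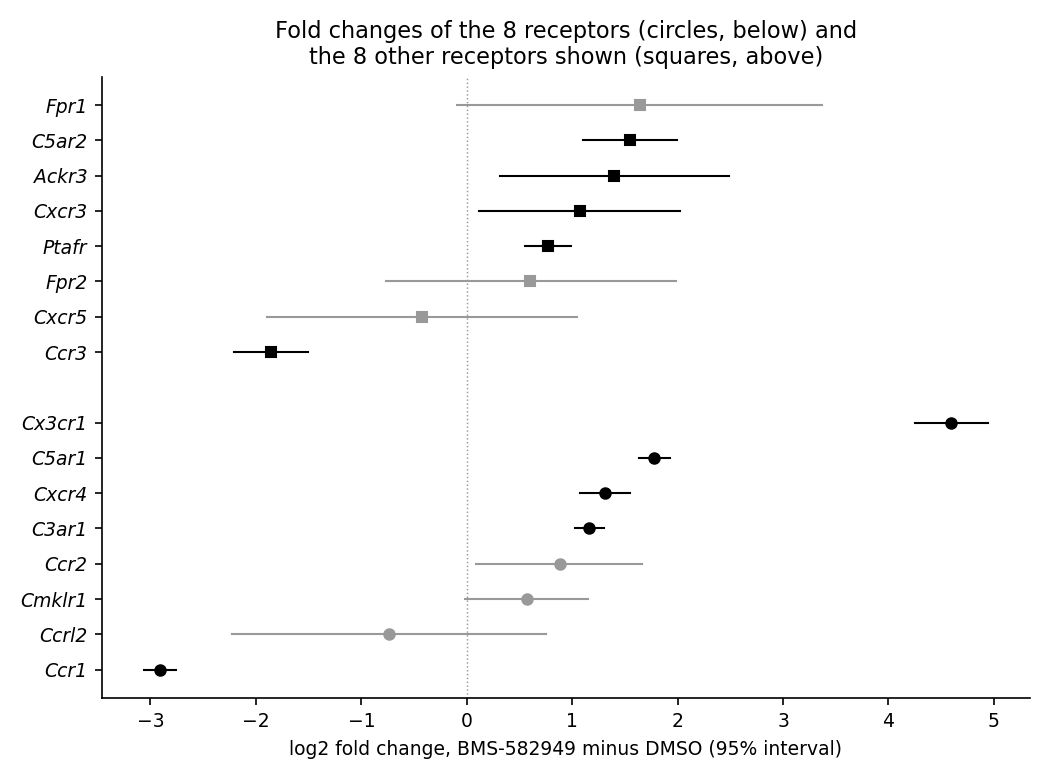
Log2 fold change (BMS-582949 minus DMSO, points) with its 95% interval (lines) for the 8 receptors (circles, lower block) and for 8 further chemoattractant receptors (squares, upper block), with called genes in black and others in grey. Ccr1 at -2.91 and Ccr3 at -1.86 lie to the left of 0, and Cx3cr1 at 4.59 lies farthest to the right. Fpr1 passed the low-count filter through the treated libraries alone.

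Levels of different genes are compared per kb of exon, with the exon length of all GENCODE M21 transcripts of a gene joined. On this scale the order in DMSO was Ccr1 (226 ± 6.70 CPM per kb), C5ar1 (42.6 ± 2.83), C3ar1 (28.1 ± 0.608), Cxcr4 (10.3 ± 1.15), Cmklr1 (0.627 ± 0.0464), Cx3cr1 (0.297 ± 0.0570), Ccrl2 (0.178 ± 0.00680) and Ccr2 (0.158 ± 0.0384), each a mean ± SD of 2 libraries. The last pair did not differ beyond their spread. With BMS-582949 the order was C5ar1 (147 ± 6.03 CPM per kb), C3ar1 (63.0 ± 2.04), Ccr1 (30.0 ± 1.20), Cxcr4 (25.5 ± 0.212), Cx3cr1 (7.19 ± 0.349), Cmklr1 (0.929 ± 0.136), Ccr2 (0.291 ± 0.0233) and Ccrl2 (0.107 ± 0.0548). Every pair of neighbours in this second order was separated by more than the spread of the libraries, counting error aside. Ccr1 thus went from the first place to the third, and Cx3cr1 from the sixth to the fifth.

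The sum over the 8 receptors was 312 and 304 CPM per kb in the DMSO libraries against 269 and 278 in the treated ones. On the TMM scale the sum was thus slightly lower in both treated libraries, while its make-up shifted. That direction depends on the scaling. The TMM factors were 0.88 and 0.8724 for DMSO against 1.153 and 1.13 for BMS-582949, and with library size alone the treated sums are the higher. Ccr1 supplied 73.9% and 72.7% of that sum in DMSO and 11.5% and 10.5% with the inhibitor. C5ar1 supplied at most 14.6% in DMSO and 52.9% and 54.2% with the inhibitor, and C3ar1 went from 9.16% and 9.11% to 22.9% and 23.2%. Per kb, Ccr1 exceeded C5ar1 by 5.69 and 4.96 times in the DMSO libraries, and the same ratio was 0.217 and 0.193 in the treated ones.

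**Figure D3:**
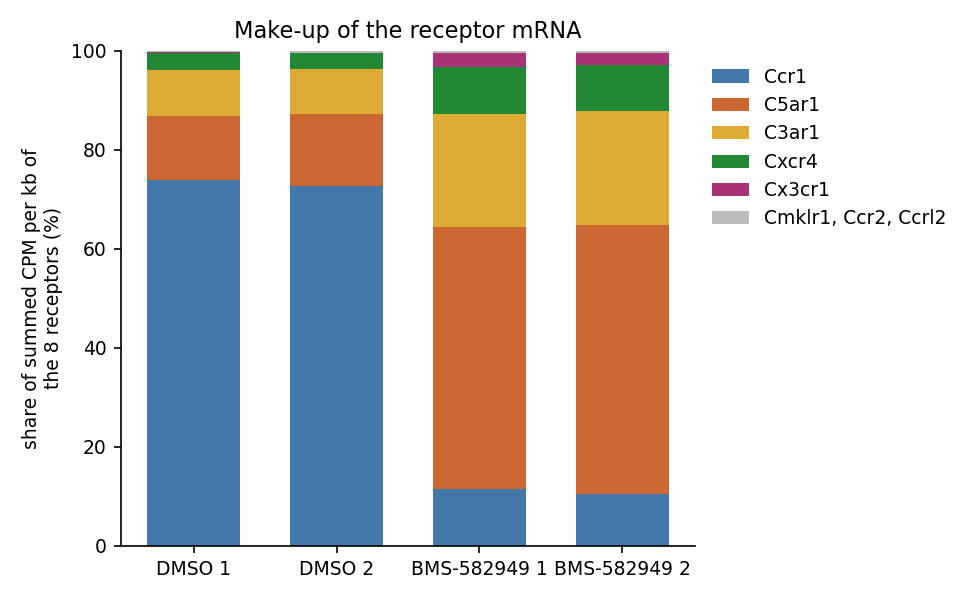
Share (%) of the summed CPM per kb of the 8 receptors that each gene supplies, stacked by library. Ccr1 fills 73.9% and 72.7% of the DMSO bars, and C5ar1 fills 52.9% and 54.2% of the BMS-582949 bars.

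Ccr1 and Ccr2 belong to a cluster of chemokine receptor genes on chromosome 9, whose stretch from Ccr9 to Ccr2 runs over 435 kb (123678439 to 124113557, GRCm38). Of the 7 receptor genes in this stretch, 3 passed the filter. Ccr3, a receptor best known on eosinophils, went from 12.1 and 13.7 CPM to 3.34 and 3.76 CPM (log2 fold change -1.86, 95% interval -2.21 to -1.51; adjusted p = 7.4e-07), so that it fell with its neighbour Ccr1. Ccr2 lies 133 kb from Ccr1. The intervals of Ccr1 and Ccr3 lie wholly below 0 and do not reach that of Ccr2. Ccr1l1, the paralog beside Ccr1, had 3 and 4 counts in DMSO and 0 in both treated libraries. Of the 3 other genes, Ccr9, Cxcr6 and Xcr1, none had more than 10 counts in a library. Paralogs such as Ccr1 and Ccr1l1 can share reads, and how such reads were counted is not given in the sources used here.

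**Figure D4:**
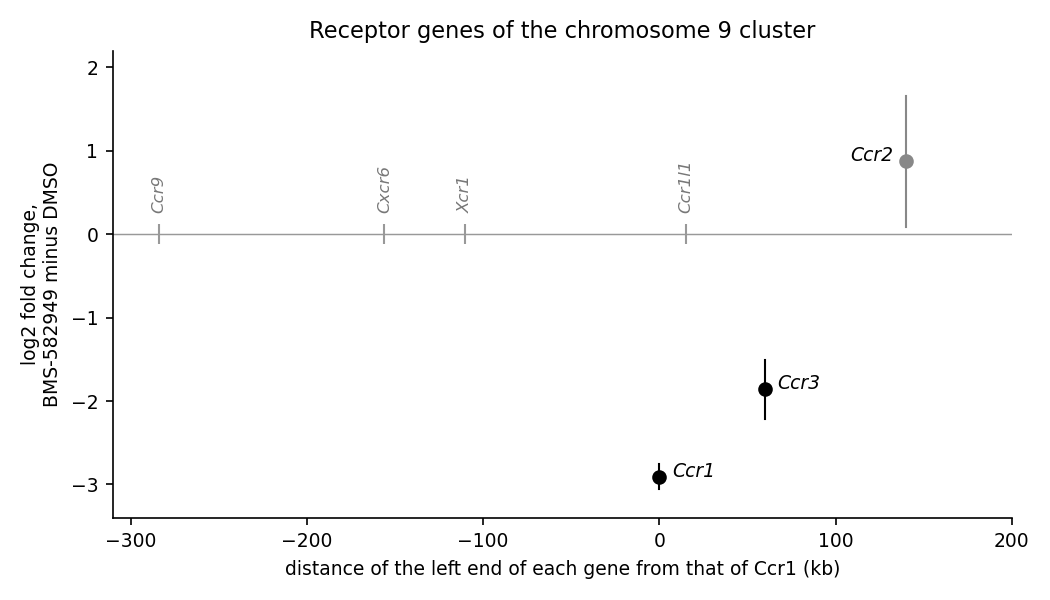
Log2 fold change (BMS-582949 minus DMSO) with its 95% interval for the receptor genes of the chromosome 9 cluster against the distance in kb from Ccr1, with called genes in black, the tested but not called Ccr2 in grey, and genes with too few counts as ticks at 0. Ccr1 (-2.91) and Ccr3 (-1.86) fell, while Ccr2 (0.88) lies above 0 without a call.

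Most other receptors for chemoattractants had too few counts to test. From a list of 25, 8 passed the filter, of which 4 were called higher, 1 (Ccr3) lower and 3 neither way, beside 30.5% higher and 29.7% lower among all tested genes. Their median log2 fold change was 0.92 against 0.03 for all tested genes. C5ar2, the second C5a receptor, lies 2.59 kb from C5ar1 on chromosome 7 and rose with it, from 2.86 and 3.80 CPM to 8.49 and 11.0 CPM (log2 fold change 1.55; adjusted p = 3.1e-05). Ptafr, the receptor for platelet-activating factor, rose from 24.1 and 26.2 to 41.8 and 44.1 CPM (0.77; adjusted p = 2.8e-05). The calls on Cxcr3 (1.07; adjusted p = 0.0495) and on Ackr3, a scavenger of Cxcl12 (1.40; adjusted p = 0.028), rest on low counts. Both were lost without DMSO replicate 2 (adjusted p = 0.21 and 0.18), without the first BMS-582949 library (0.14 and 0.089) and when the second was left out instead (0.18 and 0.10), and Cxcr3 also without DMSO replicate 1 (0.079). Of the formyl peptide receptors, Fpr1 had 7 and 2 counts in DMSO and 22 and 18 with BMS-582949. It passed the filter through the treated libraries alone, so no p is given. The 3 called neither way and the median of 0.92 include it. Fpr2 (0.60; adjusted p = 0.43) and the lymphocyte receptor Cxcr5 (-0.42; adjusted p = 0.62) were not called. Fpr1, Fpr2 and Cxcr5 each had a mean under 1 CPM in both groups.

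Ligand genes were read in the same libraries, for 12 genes whose products bind a member. Of the 11 that passed the filter, Rarres2 and Ccl12 did so only through the group where they are high. Ccl5 met it in both treated libraries but in only 1 DMSO library, so its entry also leaned on the group where it is high. Rarres2 is described apart. Of the 10 without Rarres2, 4, Ccl5 included, were called higher, 1 lower and 5, Ccl12 included, neither way, beside 30.5% higher and 29.7% lower among all tested genes. The median log2 fold change of these 10, with Ccl12, was 0.28. For Ccr1, the ligand Ccl9 was abundant and rose slightly, from 1030 and 1009 CPM to 1234 and 1256 CPM (log2 fold change 0.29, 95% interval 0.15 to 0.43; adjusted p = 0.0020), as its receptor fell 7.52-fold. Ccl6 (0.20; adjusted p = 0.14) and Ccl3 (0.28; adjusted p = 0.35) were not called. Ccl5 was (1.54; adjusted p = 0.0468), from 10 and 9 counts in DMSO to 24 and 53, and its call ended without BMS-582949 replicate 2 (0.78; adjusted p = 0.52), without DMSO replicate 1 (adjusted p = 0.12) and without DMSO replicate 2 (adjusted p = 0.16).

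For Ccr2, Ccl2 rose from 4.21 and 6.59 to 24.7 and 31.5 CPM (log2 fold change 2.38, adjusted p = 3.3e-07), while Ccl7, which also binds Ccr1, was at 3.35 and 4.31 against 3.71 and 3.73 CPM (-0.04; adjusted p = 0.89). Ccl12 was at 0.290 and 0.0634 CPM in DMSO and at 0.310 and 0.544 CPM with the inhibitor. It entered the test through the treated libraries alone, so no p is given. Cx3cl1, the ligand of Cx3cr1, was at 3.38 and 3.14 CPM against 2.56 and 2.51 CPM (-0.36; adjusted p = 0.23), and its fold change was 0.02 with library size alone. C3, the precursor of the C3ar1 ligand, rose beside its receptor, from 10.9 and 13.5 to 66.5 and 66.2 CPM (2.44; adjusted p = 2.3e-09). Hc, which encodes complement C5, did not pass the filter, with at most 2 counts in a library.

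Cxcl12 moved against Cxcr4, from 47.9 and 39.9 to 35.5 and 25.5 CPM (log2 fold change -0.53; adjusted p = 0.0071), and its call ended with library size alone (-0.14; adjusted p = 0.43). This chemokine is typical of stromal cells. Of 6 stromal markers, 4 were called lower and none higher, their summed level was 715 and 659 CPM in the DMSO libraries against 460 and 467 CPM in the treated ones, and Col1a2, the most abundant, changed by -0.53. The part of stromal cells in the Cxcl12 value was not tested. Rarres2, the chemerin gene, had 15 and 19 counts in DMSO and 0 in both treated libraries, at least 7.90-fold lower against a floor of 3 counts per library. It entered the test through the DMSO libraries alone, so no p is given, and exons of Lrrc61, on the other strand, overlap 33.6% of its exon length.

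**Figure D5:**
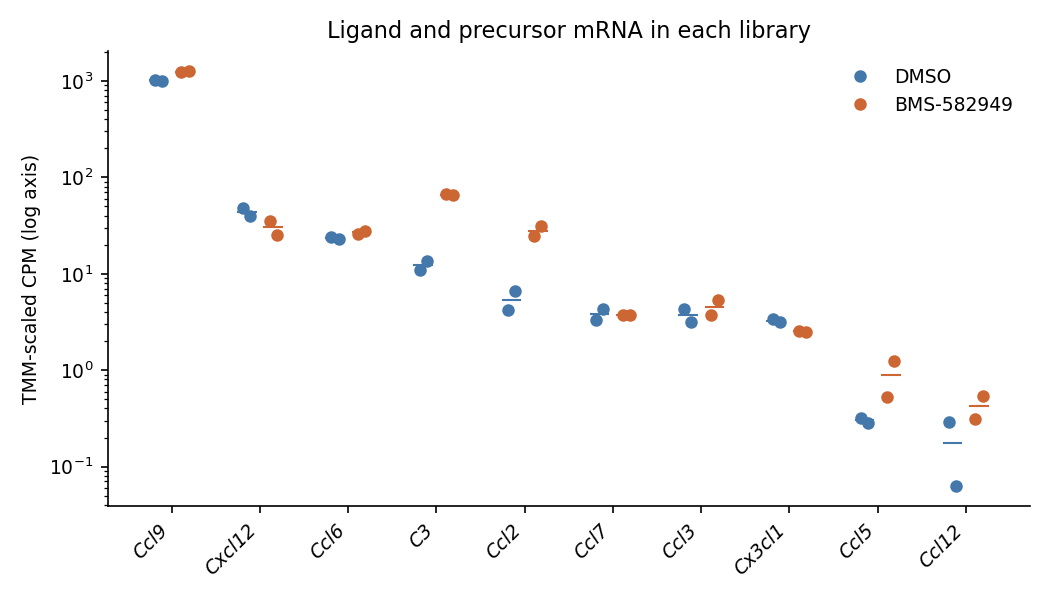
TMM-scaled CPM (log axis) of 10 ligand or precursor genes in each library, with DMSO in blue, BMS-582949 in orange and a line at each group's mean. Rarres2, at 0 in the treated libraries, is left out. C3 and Ccl2 stand well above their DMSO values with BMS-582949, and Ccl9 is the most abundant in both groups.

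Genes that relay these receptors' signals moved both ways. All 32 on the list passed the filter, and 19 were called higher, 8 lower and 5 neither way, with a median log2 fold change of 0.25. Among all tested genes 30.5% were higher and 29.7% lower, and 8 of 32 is close to the latter share. The largest rises were in Dock2, a Rac activator of blood cells (from 23.5 and 31.7 to 102 and 95.6 CPM, log2 fold change 1.84), Pik3cg, the catalytic subunit of phosphoinositide 3-kinase gamma (from 27.9 and 27.6 to 90.3 and 88.9 CPM, 1.69), and Rgs18, a regulator that shortens G protein signals (1.47). The largest falls were in Rac2, the Rac GTPase of blood cells (from 1446 and 1503 to 293 and 315 CPM, -2.28), Grk3, a receptor kinase (-1.36), and Plcb2, a phospholipase C beta (-1.35). These 6 held their direction and their call under all 12 other fits. Dock2 and Rac2 thus moved in opposite directions, while Rac1, the other Rac GTPase on the list, rose slightly with Dock2. It went from 435 and 453 to 519 and 559 CPM (0.28; adjusted p = 0.0026). Exons of Daglb, on the other strand, overlap 51.4% of the exon length of Rac1.

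The pattern over the 4 libraries was compared with 8409 protein-coding genes of at least 10 CPM on average, by the Euclidean distance of log2 CPM centred on each gene's mean. Nearest to Ccr1 were Ctsk, the collagen-degrading protease of osteoclasts (distance 0.0702), Perm1 (0.0896) and Nyap2 (0.0962). C5ar1 had P2ry6, a receptor for the nucleotide UDP (0.0361), BC030867 (0.0526) and Cdca8, a mitotic gene (0.0569) as its nearest. Cx3cr1 had no close neighbour among these genes, the nearest being Gpr84, a receptor for medium-chain fatty acids (1.48), Ass1 (1.84) and L1cam (1.86). Genes under 10 CPM on average were not compared and may lie nearer. With 2 groups of 2, such distances mostly reflect the size of the fold change.

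Markers of other blood cells that carry these receptors were low beside Ccr1, C5ar1 and C3ar1. The sums for neutrophils and monocytes were nonetheless above the sparse receptors. Ccr2 averaged 1.07 CPM in DMSO and 1.97 CPM with BMS-582949, and Cmklr1 2.14 and 3.16 CPM. Eosinophil markers were not among the lists. The 10 neutrophil markers summed to 29.5 and 29.3 CPM in DMSO and to 20.3 and 24.2 CPM with BMS-582949, with 1 called higher and 3 lower and Ly6g at 0 in every library. Among 5 monocyte markers 1 was called lower and none higher, and their sum went from 24.8 and 18.3 to 14.1 and 15.6 CPM. The part of such cells in the receptor values was not tested. By the mean over all 4 libraries, S100a9 was the highest neutrophil marker (8.65 ± 0.00134 against 7.15 ± 2.61 CPM, SD, n = 2 each; not called), followed by Ngp, which was called lower (8.71 against 5.44 CPM, log2 fold change -0.68; adjusted p = 0.0027). Plac8 was the highest monocyte marker (15.6 and 12.0 against 10.5 and 11.8 CPM; not called). Marker sums stayed under 2 CPM in every library for T and NK, B, and mast cells and basophils, with Cd79b and Kit the highest tested, and under 4 CPM for dendritic cells, with Zbtb46 the highest.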

How the data were processed

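The values the authors deposited are raw gene counts (whole numbers with unequal column sums). GRCm38, Trimmomatic 0.36, HISAT2 2.0.4 and DESeq2 1.30.1 are named in the submitters' processing notes. Not given in the sources used here were the roles of these tools, the counting tool, its annotation and its use of strand. Columns were assigned to samples by name. Symbols, coordinates and exon lengths came from GENCODE M21 (GRCm38), which matched 22022 of 22036 Ensembl identifiers, and promoters from RefSeq (GRCm38.p6).

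The counts were compared between groups with edgeR 4.0.16 in R 4.3.3 (filterByExpr with a minimum count of 10, TMM scaling, glmQLFit and glmQLFTest, no covariates, 2 residual degrees of freedom), and p-values were adjusted by Benjamini-Hochberg over all 13214 genes tested. The script was first tested on simulated data, in which few genes changed, equally many up and down. That setting differs from these data and does not test the scaling. Standard errors and 95% intervals come from the same fit. CPM are TMM-scaled. Libraries of a group differed by more than sampling noise (9.62 and 13.7 chi-square units per degree of freedom) and were counted as 2 samples.

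The members, the gene lists and the tests were chosen with earlier results of these data known. Named were all members, all tested ligands and other receptors, the 3 largest called rises and falls among the signalling genes, the most abundant gene of each marker list (for osteoclasts Acp5, Ctsk and Mmp9), and the 3 genes nearest in pattern to each of the 3 members with the largest fold changes. The values of 1 receptor gene are not reported here, and it was left out of the list of other receptors. Ngp and Rac1 were named after their values were seen. Alternatives were scaling by library size only, by DESeq2 size factors or by the upper quartile, no low-count filter, a filter of at least 1 CPM in 2 libraries, DESeq2 1.42.0, limma-voom (limma 3.58.1), a replicate block, leaving out each library, and stricter calls.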

Additional observations from a re-analysis of the deposited data

How the results depend on the processing

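The fold changes of the 8 receptors were recomputed under 12 other fits (95 values, since Ccrl2 did not pass the filter of at least 1 CPM in 2 libraries), and no direction changed. Ccr2 became called with at least 1 CPM in 2 libraries (0.86), library size only (1.26), no low-count filter (0.89), upper-quartile scaling (0.93) and without DMSO replicate 1 (1.15). Leaving out single libraries gave Ccr2 values from 0.65 to 1.15. Cmklr1 became called with library size only (0.95). The number of receptors called higher ran from 4 to 6, and 1 was called lower throughout. Of all genes, 6738 were called higher and 2240 lower with library size only, and 1314 and 1499 when at least a 2-fold change was also required. Rarres2 aside, the 1 ligand called lower, Cxcl12, lost its call with library size only and did not reach the 2-fold minimum. The 4 other receptors called higher became 2 with DESeq2 and at an adjusted p under 0.01, and 2 to 3 when single libraries were left out. Signalling genes called higher and lower went from 19 and 8 to 5 and 4 with the 2-fold minimum, and 5 were lower with library size only. Where a call or count changed, the cause was not tested, except that a stricter threshold or filter leaves fewer genes by construction.

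Replicate numbers are shared between the groups, but nothing says that they pair the samples, and deviations of same-numbered libraries correlated at -0.0776 across genes. With the replicate block, 3923 genes were called higher and 3830 lower, the calls on the 8 receptors were the same, and the calls on Ccl5 (adjusted p = 0.081), Cxcr3 (0.074) and Gnai2 (0.057) ended. The values of Ccrl2 rest on 8 to 16 counts per library and those of Ccr2 on 28 to 88, which limits their precision.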
